A study of Mus musculus with 6 samples.

Results

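Chemokines and cytokines are the secreted or shed proteins through which alveolar type 2 cells (AT2s) signal to leukocytes and to their neighbors. The genes described here are 34 of the 24421 genes in the count table, taken by symbol from a list of chemokines, interleukins and related cytokines. All 34 were found, and 30 passed the filter on low counts and were tested. The other 4 genes, Csf3, Ccl28, Ccl20 and Ccl17, are given by their counts.

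The study asked how BMP signaling acts on AT2s, the surfactant-producing stem cells of the alveolus. RNA was sequenced from lineage-labeled AT2s sorted from mouse lungs, with 3 libraries in each of 2 groups. AT2-CTRL cells had the genotype Sftpc-CreERT2/+; R26-tdTomato/+. AT2-CAB cells had the genotype Sftpc-CreERT2/+; R26-tdTomato/R26-caBmpr1a, in which the second allele encodes a constitutively active BMP type I receptor. Both groups carried the Cre and the tdTomato reporter, the mice of the study were kept on a C57BL/6 background, and tamoxifen was used to switch on the floxed alleles. Cre was driven by Sftpc, so only Sftpc-expressing cells could recombine, and a tdTomato-labeled cell need not have recombined the caBmpr1a allele as well. By the labels, AT2-CTRL replicates 1, 2 and 3 were from mice 12, 16 and 12 weeks old, and AT2-CAB replicates 1, 2 and 3 from mice 16, 12 and 12 weeks old. The labels do not state in words that each library is from a mouse of its own, so p-values measure the spread between these libraries, part of which may be technical.

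As background, chemokines bind G-protein-coupled receptors on leukocytes and guide their movement, whereas interleukins and TNF family members act on the survival and activation of immune cells. In the alveolus, AT2s are a source of factors that attract neutrophils and monocytes after injury and that maintain alveolar macrophages at rest. Many of the inflammatory genes in the group are induced through NF-kappaB and are low in resting epithelium.

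Library totals were 22909120, 24490233 and 27915100 counts in AT2-CTRL replicates 1, 2 and 3. In AT2-CAB replicates 1, 2 and 3 they were 21554249, 24716504 and 28440227 counts. At these depths 3 counts, taken as the floor, correspond to between 0.0976 and 0.138 CPM (read counts relative to a common library size after TMM scaling). These floors cover counting error only. The AT2 label fitted the markers, with Sftpc at 60123, 43468 and 42700 CPM in AT2-CTRL and 42839, 43673 and 45465 CPM in AT2-CAB. Of the 10 AT2 markers 9 were negative and 1, Sftpb, positive (0.013 on the log2 scale), with a median of -0.30, and for 5 all AT2-CAB values lay below all controls, against 10.1% of all genes. The 10 summed to 132650, 121380 and 117530 CPM in AT2-CTRL and 112240, 103600 and 100320 CPM in AT2-CAB, with 0 called and 4 lower at an unadjusted p under 0.05 in edgeR's test (Sftpd and Sftpa1 among them), against 5.05% of all genes tested, while DESeq2 called 1, Sftpd, lower. The 8 AT1 markers, with Ager, Aqp5 and Clic5 the most abundant, summed to 2813, 2475 and 1888 CPM in AT2-CTRL and 2235, 2568 and 2150 CPM in AT2-CAB, with 0 called, 1 higher (Rtkn2) and 1 lower (Aqp5) at an unadjusted p under 0.05 (against 4.62% and 5.05% of all genes), and Ager and Clic5 at -0.019 and 0.013 on the log2 scale. Of the 8, 6 were positive, with a median of 0.33. A pair of libraries, AT2-CTRL replicate 1 and AT2-CAB replicate 3, stood apart by reads on 4 Y-linked genes, with 3935 and 4494 counts against 0 in the other 4 libraries. The pair also held the highest value for 23.0% and 27.5% of all genes tested. Values within the other 4 libraries are therefore given beside many results of the whole set.

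A large part of the counts of the group came from a few genes. Summed over the 34 genes, AT2-CTRL libraries had 309, 308 and 298 CPM and AT2-CAB libraries had 344, 327 and 286 CPM, so that the groups overlapped. Cxcl16, Mif, Il34 and Cxcl17, the 4 genes with the highest mean CPM, made up 66.8%, 57.9% and 61.0% of this sum in AT2-CTRL and 47.2%, 48.9% and 54.7% in AT2-CAB. The share of these 4 genes was thus lower in each AT2-CAB library than in any AT2-CTRL library, a difference described after the values were seen and not tested. By mean CPM over the 6 libraries, 9 genes were at 10 or more, 16 were between 1 and 10, and 9 were below 1.

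Levels between genes were compared as CPM per kilobase of exonic length. Mif, a cytokine held in the cytoplasm and released without a signal peptide, had the highest level in AT2-CTRL, at 79.8 ± 13.4 CPM per kilobase (SD, n = 3). Cxcl17, a chemokine of mucosal epithelia, was at 39.2 ± 6.90 on the same scale (SD, n = 3). The next level was that of Cxcl16, a transmembrane chemokine, at 27.6 ± 3.50 CPM per kilobase (SD, n = 3), close to Il34 at 25.3 ± 2.10 (SD, n = 3). Cxcl16 and Il34 did not differ beyond their spread, while the level of Mif was above that of Cxcl17 by more than the SD of either. Below them Cxcl1 was at 8.76 ± 0.641 CPM per kilobase, and Cx3cl1, Cxcl14 and Ccl6 lay within their spread of each other at 5.97 ± 1.00, 5.93 ± 1.88 and 5.63 ± 1.21 (SD, n = 3 for each). Mif lay above 95.6% of all genes tested on this scale, Cxcl17 above 89.9%, Cxcl16 above 85.0% and Il34 above 83.6%. The lowest gene, Ccl28, was at 0.119 CPM per kilobase. Without the division by length the order of the first 4 genes was Cxcl16, Il34, Mif and Cxcl17.

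**Figure D1:**
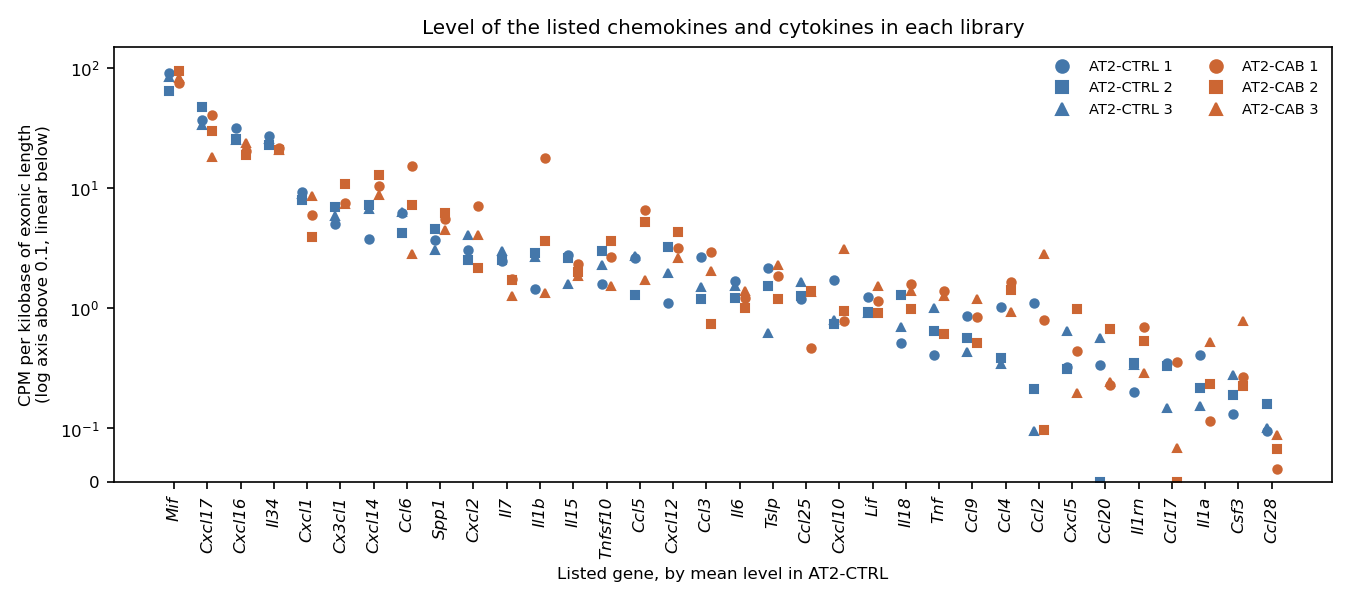
Level of each of the 34 genes in each library, as CPM per kilobase of exonic length (vertical axis, logarithmic above 0.1 and linear below), ordered by the mean of AT2-CTRL, with one symbol per library. Mif, Cxcl17, Cxcl16 and Il34 stand above the rest, with AT2-CTRL means from 79.8 down to 25.3, and Il1b in AT2-CAB replicate 1 stands far above its other 5 libraries.

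Between AT2-CAB and AT2-CTRL, no gene of the group passed the test. At an adjusted p under 0.05, edgeR's quasi-likelihood test called 0 of the 30 genes higher, against 0.239% of the 16723 genes tested, and 0 lower, against 0.012%. DESeq2 and limma-voom also called 0 of these genes. Without adjustment, 3 genes (Cxcl14, Cx3cl1 and Spp1) were higher at a p under 0.05, against 4.62% of all genes, and 3 genes (Cxcl16, Il34 and Il7) were lower, against 5.05%. These 6 genes of 30 are a description of the group, and all of their adjusted p-values in edgeR's test were at least 0.352. The split of 3 and 3 changed with the scaling, to 3 and 2 with DESeq2's size factors (5.06% and 4.01% of all genes), 3 and 1 with upper-quartile scaling (5.99% and 3.1%) and 4 and 1 with library size only (8.14% and 1.91%). The last scaling moved the median log2 fold change of all genes tested from -0.0096 to 0.12. In the 4 libraries without Y-linked reads the split was 7 and 3 (6.26% and 7.28% of all genes). With the presence of these reads as a covariate it was 5 and 5 (7.97% and 10.7%). Without AT2-CTRL replicate 3 it was 1 and 1 (2.89% and 3.17%), and without AT2-CAB replicate 3 it was 6 and 3 (4.6% and 2.92%).

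The signs leaned to higher values in AT2-CAB. Of the 30 genes, 22 had a positive log2 fold change and 8 a negative one, and these numbers were the same under the other 3 scalings. Over all 16723 genes tested, 8160 were positive and 8563 negative. The genes share the same libraries, so their signs are not 30 separate observations. The median over the 30 genes was 0.39, against -0.0096 for all genes tested. The lean varied with the libraries and the tool, with a median of 0.18 without AT2-CAB replicate 3 and 0.25 in limma-voom, and with 19 of 30 positive without AT2-CTRL replicate 3 or without AT2-CAB replicate 2. For 2 genes, Cxcl14 and Cx3cl1, all 3 AT2-CAB values lay above all 3 AT2-CTRL values, against 7% of all genes tested, and for 3 genes, Cxcl16, Il34 and Il7, they lay below, against 10.1%. The groups overlapped for the other 25 tested genes. With 3 libraries against 3, an exact two-sided permutation test of a single gene cannot give a p below 0.1. In bulk RNA, more cells of a kind and more RNA per cell cannot be told apart, and this holds for each difference given here.

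**Figure D2:**
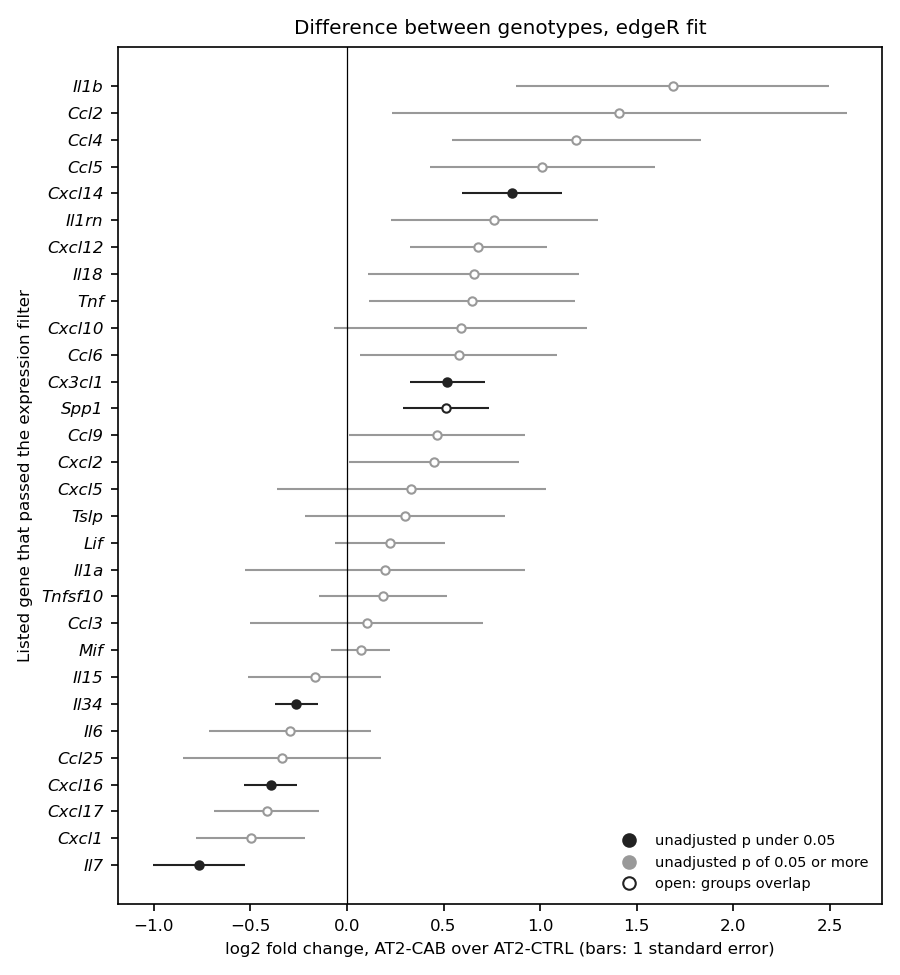
Log2 fold change of AT2-CAB over AT2-CTRL (horizontal axis) for the 30 tested genes, with bars of 1 standard error. Filled symbols mark genes whose groups do not overlap, and the genes with the largest values, Il1b, Ccl2, Ccl4 and Ccl5, have wide bars and open symbols.

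The genes with separate, higher values in AT2-CAB were Cxcl14 and Cx3cl1. Cxcl14, a homeostatic chemokine of epithelia and stroma, lies on the reverse strand of chromosome 13 of mm10 from 56288643 to 56296551. Its expression was 6.90, 13.3 and 12.3 CPM in AT2-CTRL replicates 1, 2 and 3 and 19.0, 23.7 and 16.1 CPM in the AT2-CAB replicates, in the same order, as for each gene below. All AT2-CAB values were above the controls, and AT2-CTRL replicate 1 was the lowest of the 6. Mean expression was 10.8 ± 3.44 and 19.6 ± 3.83 CPM (SD, n = 3), a log2 fold change of 0.85 with a standard error of 0.26. The unadjusted p was 0.0100, the smallest of the group, and edgeR's adjusted p was 0.352. In the 4 libraries without Y-linked reads the log2 fold change was 0.77 (edgeR adjusted p = 0.0886). With the presence of these reads as a covariate, Cxcl14 passed, at a log2 fold change of 0.89 and an edgeR adjusted p of 0.0268. Over all alternatives for this gene the adjusted p ran from 0.0268 to 0.781.

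Cx3cl1 encodes fractalkine, a membrane-bound chemokine for monocytes and lymphocytes, on the forward strand of chromosome 8 from 94772180 to 94782426. Its levels were 15.7, 22.0 and 18.5 CPM in AT2-CTRL and 23.6, 33.98 and 23.2 CPM in AT2-CAB. The groups were separate by a narrow margin, and AT2-CAB replicate 2 stood above the other libraries. On the log2 scale the difference was 0.52 with a standard error of 0.19 (edgeR adjusted p = 0.446), 0.54 in the 4 libraries without Y-linked reads and 0.33 without AT2-CAB replicate 2.

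Cxcl12, the ligand of CXCR4, had 7.89, 23.1 and 14.1 CPM in AT2-CTRL and 22.6, 30.8 and 18.8 CPM in AT2-CAB. Here the groups overlapped, with AT2-CTRL replicate 2 above 2 of the AT2-CAB libraries. The log2 fold change was 0.68 with a standard error of 0.35 (edgeR adjusted p = 0.586), and it was 0.56 in the 4 libraries and ran from 0.37 to 1.12 with each library left out in turn. Endothelial and stromal cells are a known source of CXCL12 and fractalkine, and their markers moved with these genes. The 12 endothelial markers summed to 339, 662 and 430 CPM in AT2-CTRL and 585, 946 and 626 CPM in AT2-CAB. Of these, 12 of 12 were highest in AT2-CAB replicate 2, against 10.3% of all genes tested. So were 7 of the 30 tested chemokine and cytokine genes (Cxcl12, Cx3cl1 and Cxcl14 among them) and 6 of the 8 AT1 markers. The most abundant endothelial marker, Cdh5, had 51.6, 114 and 74.3 CPM in AT2-CTRL and 100.1, 169 and 119 CPM in AT2-CAB. Its log2 fold change was 0.69 and ran from 0.45 to 1.03 with each library left out in turn. Plvap was at 0.74, Pecam1 at 0.63 and Egfl7 at 0.43 on the log2 scale. With each library left out, these ran from 0.53 to 1.01, from 0.44 to 0.98 and from 0.29 to 0.56. None of the 12 was at 0 in any library and none was called, while 7 of 12 were higher at an unadjusted p under 0.05 in edgeR's test, against 4.62% of all genes tested. DESeq2 and limma-voom also called 0 of the 12.

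The 12 mesenchymal markers summed to 213, 299 and 264 CPM in AT2-CTRL and 333, 453 and 418 CPM in AT2-CAB. Their most abundant gene, Col3a1, had a log2 fold change of 0.77, and Mfap4, Col1a1 and Col1a2 were at 0.93, 0.70 and 0.64 (0.58, 0.65 and 0.63 in the 4 libraries). All 12 had a positive log2 fold change, 0 were called and 4 were higher at an unadjusted p under 0.05 in edgeR's test, against 4.62% of all genes tested, and none was at 0 in any library. DESeq2 called 3 of them higher (Col3a1, Col1a1 and Col1a2), and limma-voom called 0. The same 3 genes passed with the covariate for Y-linked reads (edgeR adjusted p = 0.0259, 0.0166 and 0.0238), a fit in which 423 of all genes passed. Col1a1 also passed with library size only. The 10 airway markers summed to 827, 923 and 728 CPM in AT2-CTRL and 844, 1182 and 1224 CPM in AT2-CAB, with Scgb1a1 the most abundant. Of these, Tppp3 was called higher (1.85 on the log2 scale, edgeR adjusted p = 0.0165), from a mean of 96.5 CPM to one of 348 CPM, which covers most of the difference between the sums. It kept its call in 2 of the 6 fits with a library left out. Cyp2f2 was at -0.53 with separate groups, and Krt5 was at 0 in all 6 libraries. DESeq2 called Tppp3 higher and Cyp2f2 lower (adjusted p = 0.0158), and limma-voom called Tppp3 alone. Of the 9 airway markers tested, 5 were positive and 4 negative, with a median of 0.13. The part of endothelial and mesenchymal cells in the values of Cxcl14, Cx3cl1 and Cxcl12 was not tested.

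The tested genes with separate, lower values in AT2-CAB were Cxcl16, Il34 and Il7. Cxcl16, a transmembrane ligand for CXCR6 that is also a scavenger receptor, lies on the reverse strand of chromosome 11 from 70454234 to 70459984. It had 77.3, 63.5 and 61.6 CPM in AT2-CTRL and 49.8, 46.4 and 57.9 CPM in AT2-CAB. Each AT2-CAB library was below each control, by a small step between AT2-CTRL replicate 3 and AT2-CAB replicate 3. Means of 67.5 ± 8.56 and 51.3 ± 5.91 CPM (SD, n = 3) gave a log2 fold change of -0.39 with a standard error of 0.14 and an edgeR adjusted p of 0.416. In the 4 libraries without Y-linked reads it was -0.35 (edgeR adjusted p = 0.133). With the covariate for these reads Cxcl16 passed, at -0.39 and an edgeR adjusted p of 0.0482, and over all alternatives the adjusted p ran from 0.0482 to 0.781. Of its 2448 exonic bases 363 overlap Zmynd15, and reads on overlapping genes were not counted, so the level of Cxcl16 may be understated in each library.

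Cxcl17 was at 27.9, 35.7 and 25.8 CPM in AT2-CTRL and 30.8, 22.7 and 13.8 CPM in AT2-CAB. The groups overlapped, and AT2-CAB replicate 3 was the lowest library. Its log2 fold change was -0.41 with a standard error of 0.27 (edgeR adjusted p = 0.654), -0.17 in the 4 libraries without Y-linked reads and -0.12 without AT2-CAB replicate 3.

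Il34 and Il7 are cytokines that maintain other cells, IL-34 as a ligand of the CSF1 receptor of macrophages and IL-7 as a survival factor of lymphocytes. Il34, on chromosome 8 from 110741829 to 110805924, had 50.8, 43.0 and 47.6 CPM in AT2-CTRL and 40.4, 38.6 and 38.8 CPM in AT2-CAB. The AT2-CAB libraries lay close together, below all controls. On the log2 scale the difference was -0.26 with a standard error of 0.11 (edgeR adjusted p = 0.499), and -0.16 in the 4 libraries without Y-linked reads. It was between -0.23 and -0.13 under the other 3 scalings.

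Il7, on chromosome 3 from 7572077 to 7613427, had 6.14, 6.26 and 7.46 CPM in AT2-CTRL and 4.31, 4.27 and 3.12 CPM in AT2-CAB. The groups were separate, with AT2-CAB replicate 3 the lowest. Mean expression was 6.62 ± 0.731 and 3.90 ± 0.672 CPM (SD, n = 3), and the log2 fold change was -0.77 with a standard error of 0.24 (edgeR adjusted p = 0.367). Within the 4 libraries without Y-linked reads it was -0.65, and it ran from -0.82 to -0.59 with each library left out in turn.

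The other cytokines of the same class were low. Il15, Il6, Lif and Tslp had means from 1.61 to 4.46 CPM in AT2-CTRL and from 1.32 to 5.19 CPM in AT2-CAB, with overlapping groups. Csf3, the neutrophil growth factor, had 4, 6 and 10 counts in AT2-CTRL and 8, 8 and 33 counts in AT2-CAB and did not pass the filter.

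**Figure D3:**
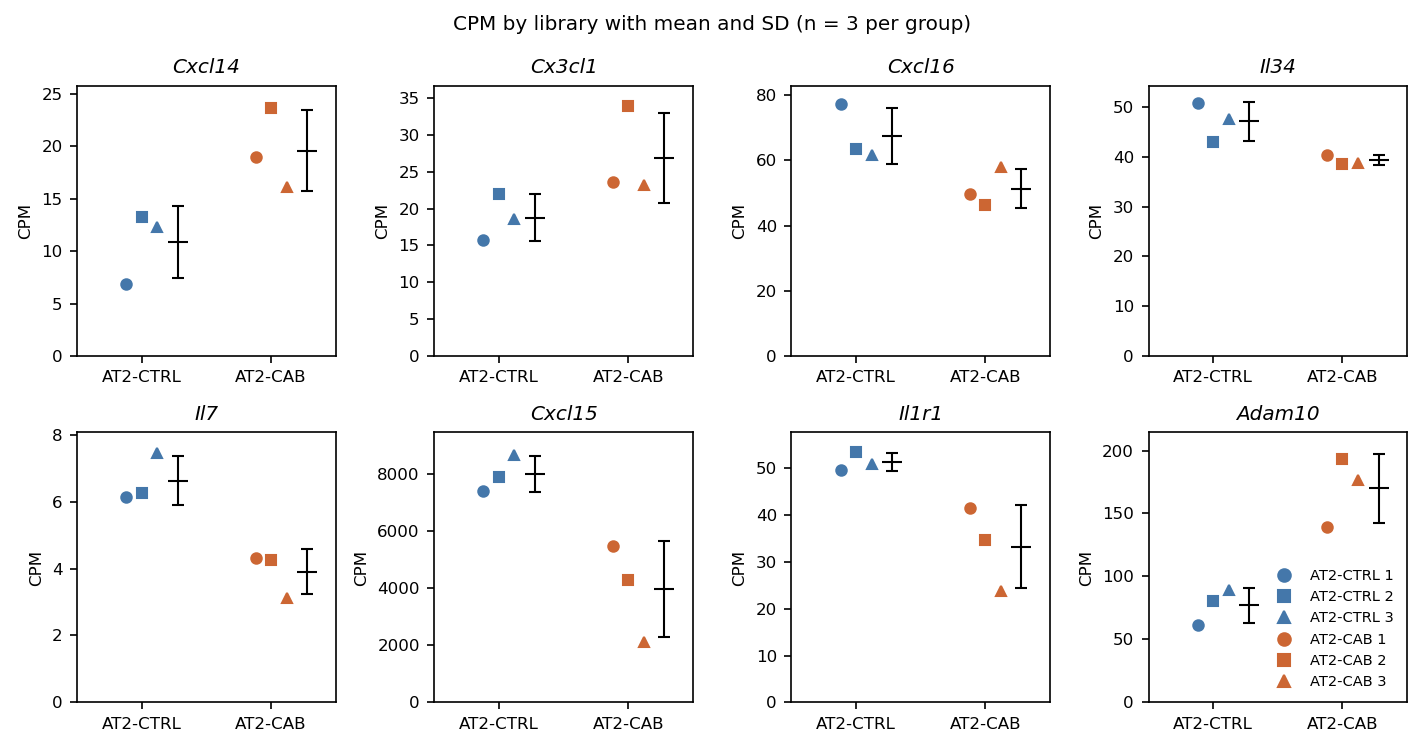
CPM in each library (points) with the group mean and SD (n = 3 per group) for the 5 tested chemokine and cytokine genes whose groups do not overlap, and for Cxcl15, Il1r1 and Adam10. Cxcl14, Cx3cl1 and Adam10 lie higher in AT2-CAB, while Cxcl16, Il34, Il7, Cxcl15 and Il1r1 lie lower, and none of the 8 genes had an adjusted p under 0.05 in edgeR's test.

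The neutrophil chemokines Cxcl1, Cxcl2 and Cxcl5, which act through CXCR2, lie in one cluster on chromosome 5, with Cxcl5 from 90759298 to 90761625, Cxcl1 from 90891245 to 90893115 and Cxcl2 from 90903899 to 90905938. The 100 bases before the start sites of Cxcl1 and Cxcl2 are shown because both hold the same matches to the NF-kappaB consensus, the regulatory element for which these genes are known. The sequences are from RefSeq (GRCm38.p6, forward strand), at chr5:90891145-90891244 for Cxcl1 and chr5:90903799-90903898 for Cxcl2. Capitals mark 2 overlapping matches of 10 bases in each, whose first bases lie 71 and 70 bases before the start site of Cxcl1 and 97 and 96 bases before that of Cxcl2.
Cxcl1: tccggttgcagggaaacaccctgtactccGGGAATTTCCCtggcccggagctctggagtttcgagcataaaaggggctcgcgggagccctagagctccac
Cxcl2: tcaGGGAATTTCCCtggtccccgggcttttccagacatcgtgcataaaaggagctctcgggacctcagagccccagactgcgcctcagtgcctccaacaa
A match is a description of these letters, not a site or a cause. Cxcl1, singled out after its values were seen, had 8.79, 7.63 and 8.53 CPM in AT2-CTRL and 5.68, 3.76 and 8.17 CPM in AT2-CAB. The AT2-CAB values were spread widely, and AT2-CAB replicate 3 was within the controls. On the log2 scale the difference was -0.50 with a standard error of 0.28 (edgeR adjusted p = 0.612), and it ran from -0.78 without AT2-CAB replicate 3 to -0.25 without AT2-CAB replicate 2, with -0.75 in the 4 libraries. Cxcl2, also singled out, had 3.32, 2.74 and 4.45 CPM in AT2-CTRL and 7.70, 2.33 and 4.39 CPM in AT2-CAB, a log2 fold change of 0.45 that was -0.042 without AT2-CAB replicate 1. Cxcl5 was below 1.7 CPM in each library.

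Over the group, 23 of the 34 genes had at least 1 RefSeq promoter of 300 bases, from 250 before to 50 after the start site, and they had 27 promoters in all. The NF-kappaB consensus, searched on both strands, was in 7 of the 27 promoters (of Cxcl1, Cxcl2, Cxcl10, Ccl9, Ccl20, Il6 and Lif), against 8.46% of all 32851 promoters. The interferon-stimulated response element, searched by its consensus, was found in 3 of the 27 (of Cxcl10, Cxcl14 and Spp1), against 3.44% of all promoters. The AP-1 element TGANTCA was found in 7 of the 27, against 7.81%, and the TATA element TATAAA in 9, against 13.6%. The GC-rich element GGCGCC, which SMAD1 and SMAD5 are known to bind, was found in 3 of the 27 (of Cxcl12, Ccl25 and Cx3cl1), against 11.9% of all promoters. The 100 bases before the start sites of Cx3cl1 (chr8:94772080-94772179, forward strand) and Cxcl14 (chr13:56296552-56296651, reverse strand) are shown since these were the tested genes with separate groups that had a promoter. Capitals mark matches to GGCGCC and TATAAA in Cx3cl1, and the 100 bases of Cxcl14 hold no match to the 5 elements.
Cx3cl1: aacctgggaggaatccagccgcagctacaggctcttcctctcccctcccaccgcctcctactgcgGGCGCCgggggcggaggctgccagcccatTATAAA
Cxcl14: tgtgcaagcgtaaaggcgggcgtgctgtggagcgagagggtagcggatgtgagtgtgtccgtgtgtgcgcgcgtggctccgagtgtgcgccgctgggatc

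The IL-1 family and the CC chemokines follow. Il1b, the proinflammatory cytokine made mainly by myeloid cells, was singled out after its values were seen. It had 1.93, 3.86 and 3.54 CPM in AT2-CTRL and 23.7, 4.85 and 1.79 CPM in AT2-CAB. AT2-CAB replicate 1 was far above the other 5 libraries, and AT2-CAB replicate 3 was the lowest of all. The log2 fold change of 1.69 (standard error 0.81, edgeR adjusted p = 0.554) was 0.12 without AT2-CAB replicate 1 and 1.96 in the 4 libraries. Ccl6, a chemokine of macrophages and granulocytes, had 9.01, 6.09 and 9.18 CPM in AT2-CTRL and 22.0, 10.5 and 4.04 CPM in AT2-CAB. Its groups overlapped at both ends, with the highest and the lowest library both in AT2-CAB. The log2 fold change was 0.58 with a standard error of 0.51 (edgeR adjusted p = 0.741), -0.12 without AT2-CAB replicate 1 and 1.11 in the 4 libraries. Ccl5, a chemokine for T cells and monocytes that was singled out as well, had 1.39, 0.686 and 1.45 CPM in AT2-CTRL and 3.48, 2.75 and 0.911 CPM in AT2-CAB, a log2 fold change of 1.01 that ran from 0.68 to 1.44 with each library left out in turn and was 1.56 in the 4 libraries.

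Leukocyte markers moved with these genes. The 24 markers summed to 177, 214 and 204 CPM in AT2-CTRL and 398, 229 and 132 CPM in AT2-CAB. Of the 24, 21 were highest in AT2-CAB replicate 1, against 8.66% of all genes tested. So were 9 of the 30 tested chemokine and cytokine genes, Il1b, Ccl6 and Ccl5 among them. The sum of the markers was lowest in AT2-CAB replicate 3. None of the markers was at 0 in any library. Of the 24, 22 were positive, with a median log2 fold change of 0.73, and for 3 all AT2-CAB values lay above all controls, against 7% of all genes. Cd14, the most abundant and also made by epithelial cells, had 54.1, 80.8 and 61.9 CPM in AT2-CTRL and 56.0, 49.3 and 28.0 CPM in AT2-CAB, a log2 fold change of -0.56 that was -0.28 without AT2-CAB replicate 3. Chil3, a macrophage product, was at 21.9, 24.3 and 23.6 CPM in AT2-CTRL and 77.0, 31.5 and 12.0 CPM in AT2-CAB. Its order over the AT2-CAB libraries was that of Il1b and Ccl6, and its log2 fold change of 0.78 was -0.066 without AT2-CAB replicate 1 and 1.20 in the 4 libraries. Cd68, which with Cd14 makes up the 2 negative markers, was at -0.12 with overlapping groups. In the 4 libraries Csf1r was called higher, at 0.82. Itgam and Csf3r were higher at an unadjusted p under 0.05, with log2 fold changes of 0.86 and 1.19 (edgeR adjusted p = 0.418 and 0.499) that were 0.56 and 0.35 without AT2-CAB replicate 1, so that 2 of 24 were past this p, against 4.62% of all genes tested, and 0 of the 24 were called by edgeR, DESeq2 or limma-voom. The part of leukocytes in the values of Il1b, Ccl6 and Ccl5 was not tested.

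**Figure D4:**
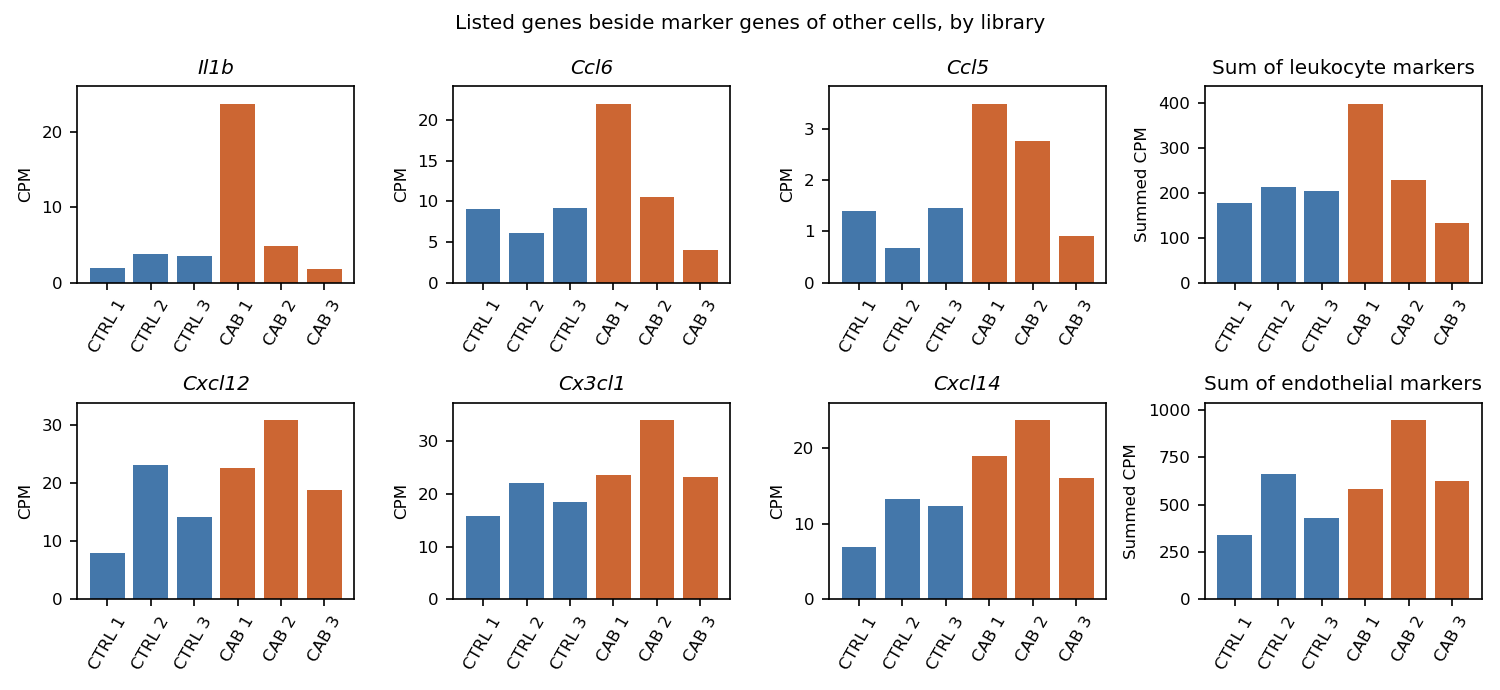
CPM in each library (bars, from 0) for Il1b, Ccl6 and Ccl5 beside the summed CPM of 24 leukocyte markers (upper row), and for Cxcl12, Cx3cl1 and Cxcl14 beside the summed CPM of 12 endothelial markers (lower row). The bars of the upper row are highest in AT2-CAB replicate 1 and those of the lower row in AT2-CAB replicate 2.

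The remaining genes of these families were low. Ccl5, Ccl9, Ccl6, Ccl3 and Ccl4 lie in a cluster on chromosome 11, from 83525779 at the start of Ccl5 to 83664683 at the end of Ccl4. Ccl9, Ccl3 and Ccl4 had AT2-CTRL means of 1.87, 1.41 and 0.386 CPM and AT2-CAB means of 2.58, 1.52 and 0.883 CPM, with overlapping groups. Ccl2, the main monocyte chemokine, had 20, 4 and 2 counts in AT2-CTRL and 14, 2 and 70 counts in AT2-CAB. Its highest library was AT2-CAB replicate 3, as it was for Cxcl10, the interferon-induced ligand of CXCR3, with 42, 19 and 23 counts in AT2-CTRL and 19, 27 and 105 counts in AT2-CAB. For both genes the next was AT2-CTRL replicate 1, the other library with Y-linked reads. The part of leukocytes in the values of Ccl2 and Cxcl10 was not tested. Il18, Il1a and the receptor antagonist Il1rn were at group means from 0.513 to 1.37 CPM, and 222 exonic bases of Il1a overlap Gm14023. Ccl25 was at 1.75 ± 0.303 CPM in AT2-CTRL and 1.38 ± 0.679 CPM in AT2-CAB (SD, n = 3).

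The counts of the untested chemokines were also small. Ccl28 had 8, 14 and 10 counts in AT2-CTRL and 2, 6 and 10 in AT2-CAB, and in CPM each AT2-CAB library was below each control. Ccl20, a ligand for CCR6, had 6, 0 and 12 against 4, 14 and 6. Ccl17, which neighbors Cx3cl1 on chromosome 8, had 4, 4 and 2 counts in AT2-CTRL and 4, 0 and 1 in AT2-CAB. With the filter removed, all 34 genes were tested and 0 were called.

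Mif, Tnfsf10, Tnf and Spp1 form the last class. Mif, on chromosome 10 from 75859353 to 75860250, had 50.1, 35.9 and 46.6 CPM in AT2-CTRL and 41.4, 52.0 and 45.9 CPM in AT2-CAB. The groups overlapped over most of their range, and the difference of 0.071 on the log2 scale (standard error 0.15, edgeR adjusted p = 0.906) changed sign when AT2-CTRL replicate 2 (-0.063) or AT2-CAB replicate 2 (-0.0031) was left out and was 0.21 in the 4 libraries. RefSeq lists 7 pseudogenes of Mif, with which its reads could be shared, so its level is uncertain. Spp1 encodes osteopontin, a secreted glycoprotein with cytokine activity, on chromosome 5 from 104435111 to 104441053. It had 6.14, 7.63 and 5.10 CPM in AT2-CTRL and 9.17, 10.3 and 7.42 CPM in AT2-CAB. Only AT2-CTRL replicate 2 and AT2-CAB replicate 3 crossed, and the log2 fold change was 0.51 with a standard error of 0.22 (edgeR adjusted p = 0.513) and 0.65 in the 4 libraries.

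Tnfsf10, the death receptor ligand TRAIL, had 7.94, 14.7 and 11.4 CPM in AT2-CTRL and 13.2, 18.1 and 7.55 CPM in AT2-CAB. The highest and the lowest library were both in AT2-CAB, and the log2 fold change of 0.19 (standard error 0.33, edgeR adjusted p = 0.882) was -0.021 without AT2-CTRL replicate 1, -0.12 without AT2-CAB replicate 2 and 0.30 in the 4 libraries. Tnf was at 1.14 ± 0.505 CPM in AT2-CTRL and 1.79 ± 0.689 CPM in AT2-CAB (SD, n = 3), with overlapping groups.

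Receptors of these ligands were counted in the same libraries. Of 41 listed receptors 36 were tested, 0 were called in either direction, 4 were higher and 1 was lower at an unadjusted p under 0.05 in edgeR's test (against 4.62% and 5.05% of all genes), and the median log2 fold change was 0.21. Over all pathway lists given here, DESeq2 called 2 genes (Cxcl15 and Adam10) and limma-voom 0. Cd74, the MIF receptor and MHC class II chaperone, was the most abundant at 4140, 2869 and 3141 CPM in AT2-CTRL and 3361, 3882 and 4566 CPM in AT2-CAB. Its groups overlapped, with a log2 fold change of 0.22 that ran from 0.11 to 0.38 with each library left out in turn. Il1r1, the receptor through which IL-1 acts on AT2s, had 49.5, 53.3 and 50.8 CPM in AT2-CTRL and 41.4, 34.6 and 23.7 CPM in AT2-CAB. All AT2-CAB libraries were below the tightly grouped controls, with a log2 fold change of -0.63, a standard error of 0.19 and an edgeR adjusted p of 0.352. Within the 4 libraries lacking Y-linked reads the value was -0.42, and Il1r1 passed with the covariate for these reads (-0.66, adjusted p = 0.0476 in edgeR's test). Over all alternatives its adjusted p ran from 0.0476 to 0.781.

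Il18r1, a chain of the IL-18 receptor, had a log2 fold change of -0.44 with separate groups, and Il6ra of 0.38 with separate groups (edgeR adjusted p = 0.576 and 0.492). For Il18r1 the value was -0.17 without AT2-CAB replicate 3 and -0.25 in the 4 libraries without Y-linked reads. Il6st, the shared chain of the IL-6 family receptors, was at 205 ± 79.5 and 187 ± 41.6 CPM (SD, n = 3). The receptors for CXCL16 and fractalkine were low. Cxcr6, the receptor for CXCL16, was at 0.568 ± 0.313 CPM in AT2-CTRL and 0.895 ± 0.381 CPM in AT2-CAB, and Cx3cr1, the receptor for fractalkine, at 0.911 ± 0.211 and 0.967 ± 0.397 CPM (SD, n = 3). Cxcr1, Cxcr3, Ackr1 and Ccr8 were at 0 in some libraries and did not pass the filter.

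Among 45 further cytokines, 43 were in the table and 27 were tested. In edgeR's test 0 were called, 0 were higher and 3 were lower at an unadjusted p under 0.05 (against 4.62% and 5.05% of all genes), and the median log2 fold change was 0.13. The 3 lower genes are products for which AT2s are known. Cxcl15, the lung chemokine lungkine, had 7415, 7886 and 8675 CPM in AT2-CTRL and 5467, 4301 and 2131 CPM in AT2-CAB. Each AT2-CAB library was below each control, and AT2-CAB replicate 3 was the lowest. The log2 fold change was -1.01 with a standard error of 0.31 (adjusted p = 0.367 in edgeR's test, 0.0371 in DESeq2), and -0.73 in the 4 libraries without Y-linked reads.

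Il33, a nuclear alarmin, was at 449, 720 and 757 CPM in AT2-CTRL and 479, 417 and 244 CPM in AT2-CAB. AT2-CTRL replicate 1 lay among the AT2-CAB values, so the groups overlapped. On the log2 scale the difference was -0.76 with a standard error of 0.28 (edgeR adjusted p = 0.446). In the 4 libraries without Y-linked reads it was -0.69, and there the gene passed (edgeR adjusted p = 0.0312), while without AT2-CAB replicate 3 it was -0.49. Csf2 encodes GM-CSF, the growth factor on which alveolar macrophages depend, and had 21.6, 11.9 and 14.2 CPM in AT2-CTRL and 9.76, 9.54 and 8.23 CPM in AT2-CAB. The groups were separate, with a log2 fold change of -0.79, a standard error of 0.23 and an edgeR adjusted p of 0.328. In the 4 libraries without Y-linked reads it was -0.41. Grn, which encodes progranulin, was at -0.24 with overlapping groups, at -0.12 without AT2-CTRL replicate 1 and at -0.015 in the 4 libraries.

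CXCL16 and fractalkine are released from the membrane by the proteases ADAM10 and ADAM17. Adam10 had 61.8, 80.3 and 89.1 CPM in AT2-CTRL and 139.6, 193 and 177 CPM in AT2-CAB. The lowest AT2-CAB library was well above the highest control, with group means of 77.1 ± 13.9 and 169.9 ± 27.5 CPM (SD, n = 3). The log2 fold change was 1.14 with a standard error of 0.18 (unadjusted p = 0.000159 and adjusted p = 0.0576 in edgeR's test), so that the gene narrowly missed the threshold. In the 4 libraries without Y-linked reads it was 1.01 (edgeR adjusted p = 0.0439), and over all alternatives the adjusted p ran from 9.44e-06 in DESeq2 to 0.314 with a library left out. Adam17 was at -0.20 with overlapping groups, and at -0.057 without AT2-CAB replicate 3. Of the 10 genes for shedding and for IL-1 and IL-18 processing, all were tested, 0 were called, and 2 (Adam10 and Aim2) were higher and 0 lower at an unadjusted p under 0.05 in edgeR's test (against 4.62% and 5.05% of all genes), with a median log2 fold change of 0.43. Aim2, a DNA sensor of the inflammasome, had a log2 fold change of 1.04 (edgeR adjusted p = 0.515) at low means of 0.834 CPM in AT2-CTRL and 1.73 CPM in AT2-CAB. Gsdmd, the pore-forming protein of IL-1 release, was at 24.2 ± 2.48 and 23.3 ± 3.79 CPM (SD, n = 3).

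Of 30 genes of the NF-kappaB pathway, all tested, 0 were called, 0 were higher and 5 were lower at an unadjusted p under 0.05 in edgeR's test (Nfkbiz, Nfkb1, Birc3, Traf1 and Myd88), against 4.62% and 5.05% of all genes, and the median log2 fold change was -0.13. All AT2-CAB values lay below all controls for 6 of the 30 (Icam1, Nfkbiz, Myd88, Chuk, Traf2 and Irak1), against 10.1% of all genes. Icam1, an adhesion molecule induced through the pathway, was the most abundant at 672, 793 and 627 CPM in AT2-CTRL and 569, 602 and 492 CPM in AT2-CAB. On the log2 scale Icam1 was at -0.33 (edgeR adjusted p = 0.528) and was -0.21 without AT2-CAB replicate 3. Nfkbiz and Myd88 were at -0.46 and -0.31 (edgeR adjusted p = 0.387 and 0.443). Nfkbia, the inhibitor induced by NF-kappaB, was at 192, 122 and 134 CPM in AT2-CTRL and 131, 105 and 288 CPM in AT2-CAB. AT2-CAB replicate 3 was the highest library for Nfkbia and AT2-CTRL replicate 1 the next, as for Ccl2 and Cxcl10. The log2 fold change of 0.23 was -0.079 in the 4 libraries without Y-linked reads.

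Of 15 genes of JAK-STAT signaling and its SOCS inhibitors, all tested, 0 were called, with a median log2 fold change of 0.088. At an unadjusted p under 0.05 in edgeR's test 0 were higher and 0 lower, against 4.62% and 5.05% of all genes. The most abundant were Stat3 at 357 ± 49.2 and 334 ± 7.04 CPM, Socs3 at 314 ± 27.3 and 368 ± 98.6 CPM, and Socs2 at 327 ± 69.8 and 252 ± 25.9 CPM in AT2-CTRL and AT2-CAB (SD, n = 3). Socs3 was at 0.23 on the log2 scale and 0.010 in the 4 libraries. Stat5a was at 20.9 and 24.4 CPM. Neither DESeq2 nor limma-voom called a gene of this list or of the NF-kappaB list.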

How the data were processed

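Poly(A) RNA of sorted AT2s was sequenced as paired reads in 3 AT2-CTRL and 3 AT2-CAB libraries. The authors trimmed the reads, aligned them to mm10 with Hisat2, removed duplicates, and deposited raw counts per gene from featureCounts 1.5.3 (version from the submitters' processing notes). The other deposited column used was the exonic length of each gene. Counting ignored strand and skipped reads that hit more than 1 gene. Even numbers made up 56.9% to 60.8% of the counts from 1 to 20, so mates may have been counted separately, although the authors' methods speak of fragments. Library totals were 21554249 to 28440227 counts. The main test was the quasi-likelihood test of edgeR 4.0.16 (R 4.3.3) after TMM scaling and the default expression filter, whose minimum count is 10. Benjamini-Hochberg adjustment ran over all 16723 genes tested, and an adjusted p under 0.05 was a call. The standard error is the log2 fold change divided by the square root of F. DESeq2 1.42.0 and limma-voom (limma 3.58.1) were alternatives, beside other scalings, filters, covariates and left-out libraries, and the scripts were tested on simulated data. All pairs of libraries of 1 group differed by more than counting noise. The members and lists were chosen with earlier results of these data known. Among the listed chemokine and cytokine genes, values in every library are given for those with a mean of at least 10 CPM, an unadjusted p under 0.05 or groups that did not overlap. This rule was not applied to the pathway and marker lists. From each pathway and marker list the genes named are those called, or the 3 most abundant and the 2 with the smallest p. Genes outside these rules are named for their ligand or for a count they belong to, or singled out after their values were seen. Promoters are from RefSeq and were searched with Python 3.11.15.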

Additional observations from a re-analysis of the deposited data

How the results depend on the processing

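The number of all genes called was 42, and 67 without the expression filter, 286 with the DESeq2 test, 423 with a covariate for Y-linked reads, 113 in the 4 libraries without such reads and from 6 to 63 with each library left out in turn. Of the chemokine and cytokine genes, 1 was called higher (Cxcl14) and 1 lower (Cxcl16) with the covariate, and 0 under each other alternative run. Of the pathway genes 0 were called, against 1 (Adam10) with upper-quartile scaling, library size only, no filter or the replicate number as a block, 2 with DESeq2 (Adam10 and Cxcl15), 5 with the Y-linked covariate (Adam10, Cxcl15, Il33, Il1r1 and Birc3) and 3 in the 4 libraries (Adam10, Il33 and Csf1r). Replicate numbers do not pair the samples (correlations of same-numbered deviations -0.24, 0.20 and -0.53). Age and Y-linked reads together match AT2-CTRL replicates 1, 2 and 3 to AT2-CAB replicates 3, 1 and 2. Between these matched libraries the correlations were 0.61, 0.11 and 0.49, in the same order. No fit used this match as a block. Blocking by replicate number gave 36 calls up and 5 down, and Adam10 had an edgeR adjusted p of 0.0374. Some log2 fold changes that were not called changed sign. Nfkbia was at -0.079, Sftpc at 0.039, Cd68 at 0.19 and Ager at 0.24 in the 4 libraries, Stat3 at 0.037 with library size only, and Gsdmd, at -0.053, at 0.010 with upper-quartile scaling, 0.071 with library size only and 0.20 in the 4 libraries. Cd68 was at 0.0020 with library size only and Sftpb at -0.0032 without the filter. Ager, at -0.019, was at 0.013 with DESeq2's size factors, 0.11 with library size only, 0.045 with upper-quartile scaling, 0.034 with a minimum count of 30, 0.0014 in DESeq2, 0.0084 in limma-voom, 0.013 with the block and 0.0081 with the covariate. Clic5 was at -0.015 in limma-voom, -0.020 with the block and -0.029 with the covariate. With each library left out in turn the values ran from -0.063 to 0.18 for Mif, -0.12 to 0.50 for Tnfsf10, -0.12 to 1.03 for Ccl6, -0.042 to 0.80 for Cxcl2, -0.43 to 0.074 for Il6st, -0.29 to 0.51 for Nfkbia, -0.066 to 1.25 for Chil3, -0.12 to 0.12 for Gsdmd, -0.22 to 0.049 for Cd68, -0.24 to 0.024 for Sftpc, -0.019 to 0.081 for Sftpb, -0.18 to 0.19 for Ager and -0.28 to 0.34 for Clic5. Of the markers, Tppp3 was called in the main test, DESeq2 also called Col3a1, Col1a1, Col1a2, Sftpd and Cyp2f2, the covariate Col3a1, Col1a1, Col1a2 and Cyp2f2, library size only Col1a1, and the 4 libraries Csf1r. Tppp3 lost its call in 4 of the 6 fits with a library left out (edgeR adjusted p up to 0.13). The causes were not tested. Per length, the order of Mif, Cxcl17, Cxcl16, Il34 and Cxcl1 in AT2-CTRL was 1 to 5, and without length correction their ranks were 3, 4, 1, 2 and 9. Depth limits the 9 genes with a mean below 1 CPM.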
